A study of Mus musculus with 3 samples.

Results

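EZH2 regions that lie inside gene bodies and were found in both untreated and stimulated macrophages are described here. Mouse bone marrow-derived macrophages were profiled by ChIP-seq, sequencing after chromatin immunoprecipitation, which recovers DNA bound by a protein. The study had 3 libraries, which were 1 EZH2 library of untreated cells (NT), 1 EZH2 library of cells given lipopolysaccharide (LPS) for 2 h, and 1 input DNA library, whose values were not used here. The members were chosen from a deposited list of merged EZH2 regions on chromosomes 1 to 19, X and Y. A region was taken when it met an interval of both EZH2 libraries, was under 5 kb wide, had its midpoint inside a protein-coding gene, and had that midpoint more than 2.5 kb from every end of a protein-coding gene. This left 524 of 9785 merged regions. They made up 14.2% (95% Wilson interval 13.1 to 15.4%) of the 3680 shared regions under 5 kb. With a limit of 1 kb from gene ends 1074 regions qualified, and 266 qualified when each library's intervals of below-median value were dropped.

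Both groups were C57BL/6 macrophages. Marrow of femurs and tibias from adult animals was grown for 5 days in medium with M-CSF, a growth factor that drives marrow progenitors into macrophages. LPS is a bacterial outer membrane component that macrophages sense through Toll-like receptor 4. A service company performed the ChIP with an EZH2 antibody (catalogue number 39901), per the labels. The labels give no number of animals and do not say whether animals were pooled. Each condition had 1 library, so no difference between NT and LPS given below has a replicate check, and none was tested. The track of stimulated cells is named TLR, not LPS, and its assignment to the LPS sample is a limit on every LPS value. Across whole libraries there were 9643 NT intervals and 4651 LPS intervals. ChIP-seq of EZH2 measures no expression, so the macrophage label could not be checked on marker levels, and 0 of the 10 macrophage markers looked up was a host gene, where 5 of them had an interior at all, of 0.319 Mb. A shared region lay at an end of 2 of the 10 markers.

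EZH2 is the catalytic subunit of polycomb repressive complex 2 (PRC2), which methylates lysine 27 of histone H3 and so marks genes that are kept silent. In mammals PRC2 is found mostly at CpG islands, stretches of DNA in which the dinucleotide CpG was not lost, and many of these lie at the starts of developmental genes. A gene body can also hold CpG islands, where alternative promoters or antisense RNAs may start. In macrophages, polycomb regulation is known for silencing genes of other lineages and for acting on part of the inflammatory genes.

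Sequences around annotated starts inside the regions are shown because many of the regions were found to hold such a start. Each is 300 bases, from 250 before the start to 50 after it, printed 5′ to 3′ on the strand of the gene, with CpG dinucleotides in capitals. All are RefSeq sequences of GRCm38.p6, the assembly of mm10. The first pair comes from Sp2, a zinc finger transcription factor gene whose region had the highest value of all 524. The start inside the region lies at chr11:96977639-96977938 on the minus strand and holds 25 CpG. The first listed start of Sp2 lies 5271 bp upstream at chr11:96982910-96983209, holds 6 CpG and met no EZH2 region.
Sp2 start inside the region: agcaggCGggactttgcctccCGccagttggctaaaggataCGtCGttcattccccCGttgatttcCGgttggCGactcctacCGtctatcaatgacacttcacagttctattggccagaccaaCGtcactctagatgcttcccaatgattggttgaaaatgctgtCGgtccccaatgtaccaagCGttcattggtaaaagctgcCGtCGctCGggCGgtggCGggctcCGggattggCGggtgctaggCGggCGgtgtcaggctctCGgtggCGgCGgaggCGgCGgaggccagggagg
Sp2 first listed start: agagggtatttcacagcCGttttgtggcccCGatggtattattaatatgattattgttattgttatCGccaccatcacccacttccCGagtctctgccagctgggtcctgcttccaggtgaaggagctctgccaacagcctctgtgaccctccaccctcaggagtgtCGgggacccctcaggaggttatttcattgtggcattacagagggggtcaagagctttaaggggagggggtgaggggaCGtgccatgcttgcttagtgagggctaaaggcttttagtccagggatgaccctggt

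The second pair comes from Mest, an imprinted gene expressed from the paternal allele. The start inside the EZH2 region lies at chr6:30737800-30738099 on the plus strand, 4544 bp downstream of the first listed start at chr6:30733256-30733555. The former holds 17 CpG and the latter 8, and the first listed start met no EZH2 region.
Mest start inside the region: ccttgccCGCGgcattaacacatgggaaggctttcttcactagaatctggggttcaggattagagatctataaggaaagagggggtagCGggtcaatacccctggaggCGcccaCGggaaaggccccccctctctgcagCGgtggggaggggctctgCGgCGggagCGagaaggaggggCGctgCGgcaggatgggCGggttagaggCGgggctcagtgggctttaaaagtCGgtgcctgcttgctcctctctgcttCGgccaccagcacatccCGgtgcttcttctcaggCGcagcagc
Mest first listed start: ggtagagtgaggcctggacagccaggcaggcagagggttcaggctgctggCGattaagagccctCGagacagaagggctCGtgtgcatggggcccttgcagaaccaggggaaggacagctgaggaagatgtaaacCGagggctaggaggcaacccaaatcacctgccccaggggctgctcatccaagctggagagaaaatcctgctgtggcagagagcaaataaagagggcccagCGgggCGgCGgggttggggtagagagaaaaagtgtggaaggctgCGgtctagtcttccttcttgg

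The range of base composition among the starts inside regions is shown by another pair. The potassium channel gene Kcna2 has a CpG-dense start at chr3:107101317-107101616 on the plus strand with 31 CpG. Tnxb, which encodes an extracellular matrix tenascin, has a start at chr17:34670285-34670584 on the plus strand with 5 CpG.
Kcna2 start inside the region: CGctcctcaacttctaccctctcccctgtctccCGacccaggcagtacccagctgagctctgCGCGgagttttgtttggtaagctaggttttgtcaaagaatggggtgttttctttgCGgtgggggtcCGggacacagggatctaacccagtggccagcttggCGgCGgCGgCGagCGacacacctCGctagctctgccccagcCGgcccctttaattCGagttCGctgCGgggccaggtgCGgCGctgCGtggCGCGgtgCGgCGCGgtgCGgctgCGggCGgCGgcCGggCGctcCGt
Tnxb start inside the region: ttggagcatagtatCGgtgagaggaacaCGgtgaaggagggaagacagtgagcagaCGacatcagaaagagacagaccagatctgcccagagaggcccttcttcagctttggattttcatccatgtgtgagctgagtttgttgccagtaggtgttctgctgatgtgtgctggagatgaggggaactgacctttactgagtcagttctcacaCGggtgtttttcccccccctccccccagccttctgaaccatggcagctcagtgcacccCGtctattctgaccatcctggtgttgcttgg

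Each deposited interval carries a whole number for the height of its summit (the summit value), in a unit not given in the sources used here. The largest summit value of a library in a region was taken as that region's value. Among the 524 regions NT values ran from 12 to 156 with a median of 33, and LPS values ran from 8 to 73 with a median of 16. The ratio of the LPS to the NT value had a median of 0.5, with the middle 50% of regions between 0.428 and 0.6. Depth and scaling of the libraries are unknown, so a ratio under 1 does not show that EZH2 binding decreased. The gene-end regions, with a midpoint within 2.5 kb of a gene end, had medians of 35 in NT, 17 in LPS and 0.492 for the ratio over 2801 regions. Regions between genes had medians of 28, 14 and 0.524 over 355 regions. The inner regions thus lay between these classes in value, and all 3 classes overlapped over most of their range.

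**Figure D1:**
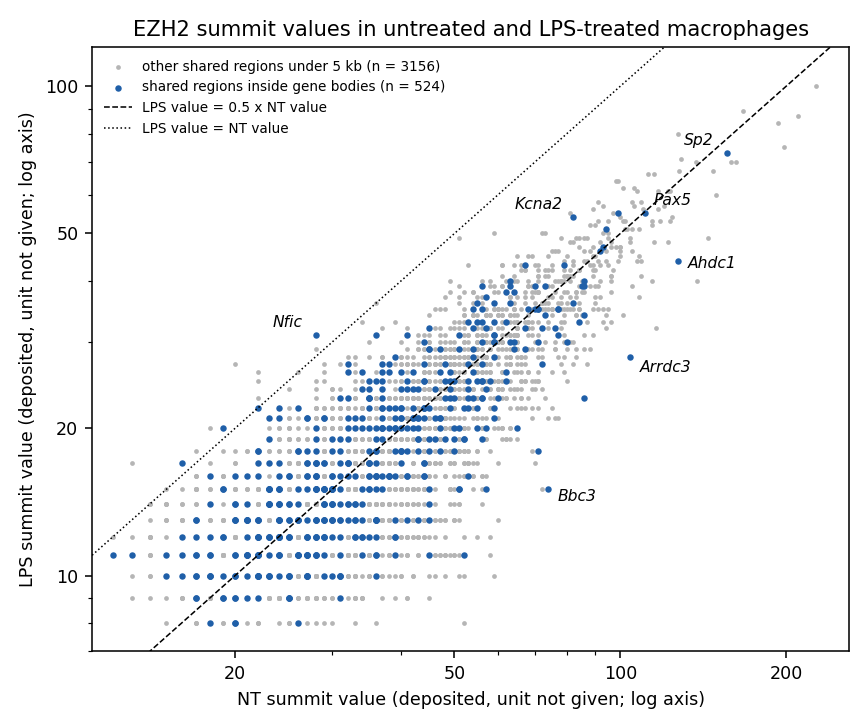
Summit value in the LPS library against that in the NT library for each shared region under 5 kb, on log axes, with the 524 regions inside gene bodies in blue and the gene-end and between-gene regions (2801 and 355) in grey. Most blue points lie along the line where the LPS value is 0.5 times the NT value, from 12 to 156 in NT, among the grey points.

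The region at Sp2 had summit values of 156 in NT and 73 in LPS. Next by the mean of both values came Ahdc1, an AT-hook protein gene, with 127 in NT and 44 in LPS, and Pax5, the B-lineage commitment factor, with 111 and 55. The sensory neuron factor gene Pou4f1 had 99 and 55, the zinc finger gene Zfp316 had 94 and 51, and Prdm13, a PR domain factor of the nervous system, had 93 and 47. In each of these 6 regions the LPS value was the lower one. Outside transcription regulation, high values lay at Clstn1, a synaptic calsyntenin gene, with 92 in NT and 46 in LPS, and at Kcna2 with 82 and 54. Pak6, a p21-activated kinase gene, had 86 and 40, and the arrestin-domain gene Arrdc3 had 104 and 28.

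The position of the signal within a region was alike in both libraries. The NT and LPS summits lay a median of 128 bp apart, and 456 of the 524 regions (87.0%) had them under 500 bp apart. Gene-end regions had a median of 112 bp with 87.2% under 500 bp, and regions between genes had 128 bp and 81.4%. In 489 regions (93.3%) each library had 1 interval, as in 93.3% of gene-end regions and 93.5% of those between genes. These traits are thus not particular to the inner regions. Region widths ran from 772 to 4978 bp with a median of 2089 bp. The rule itself sets the upper limit of these widths and the presence of both intervals, so these are descriptions.

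Regions whose ratio departed from the typical value were counted against all shared regions. A ratio at least 1.5-fold above the median of all 4027 shared regions was found in 30 of the 524 regions (5.73%, 95% Wilson interval 4.04 to 8.06%), beside 5.44% of all shared regions. A ratio at least 1.5-fold below that median was found in 31 (5.92%, 4.20 to 8.27%), beside 8.12% of all. Both shares are near the background, and nothing is read from them about the inner regions as a class. Wilson intervals here cover counting error only and treat neighbouring regions as independent.

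The lowest ratios were taken among the stronger regions, those whose mean of both values was not below the median. Bbc3, which encodes the pro-apoptotic BH3-only protein PUMA, had 74 in NT and 15 in LPS, a ratio of 0.203. Tcf25 had 45 and 11, and the zinc finger homeobox gene Zfhx3 had 71 and 18. Low ratios were also found at Fam169a with 57 and 15, at Gne, which encodes an enzyme of sialic acid synthesis, with 39 and 11, and at Extl3, a heparan sulphate glycosyltransferase gene, with 45 and 13. Arrdc3 and Msi1, given with other genes, were also among the 8 lowest.

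At the other extreme was Nfic, a nuclear factor I gene, with 28 in NT and 31 in LPS, a ratio of 1.11. It was 1 of 3 regions with a ratio over 1, beside Crhr1 (16 and 17) and Olfm1 (19 and 20), which were named after their values were seen. Among the other high ratios, the homeobox gene Hmx1 had 36 and 31, Lhx6, a LIM homeobox gene of cortical interneurons, had 34 and 26, and the placental gene Esx1 had 31 and 23. Mecom, a regulator of blood stem cells, had 32 and 26, and Siglec15, a lectin gene of the osteoclast lineage, had 32 and 27. The muscle kinase gene Speg had 41 and 31, and Fcmr, the IgM Fc receptor gene, had 37 and 27. A difference of a few units separates most of these values.

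The ratio went with the NT value. It had a median of 0.56 in the 139 regions with NT values up to 25 and of 0.465 in the 102 regions over 50. Gene-end regions had 0.579 and 0.471 in the same ranges. A region entered the list only with an LPS interval, and the lowest LPS value of the whole library was 7. The lowest ratios could therefore not be seen at the lowest NT values. The NT value is also the divisor of the ratio. The part of either in this pattern was not tested.

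How often an NT region inside genes also had an LPS interval depended on its value. Under 5 kb there were 1245 regions in gene interiors, of which 524 were shared, 669 had an interval of NT only and 52 one of LPS only. Of those with an NT interval 43.9% (41.1 to 46.8%) were shared, against 38.8% (37.7 to 39.9%) at gene ends and 47.2% (43.7 to 50.8%) between genes. With NT values up to 20 the shares were 13.5% in gene interiors, 14.2% at gene ends and 24.8% between genes. With NT values over 20 and up to 30 the shares were 39.5% (35.1 to 44.0%) in gene interiors, 26.5% of 3017 regions at gene ends and 49.1% between genes. Over 30 and up to 40 they were 64.4%, 49.4% and 84.3%, and over 50 they were 99.0%, 96.5% and 94.4%. Gene interiors thus stood between the other classes from 20 to 40, and not above gene ends up to 20. Median widths over 20 and up to 30, of regions shared or not, followed the same order, with 1204 bp at gene ends, 1366 bp in interiors and 1474 bp between genes, and the part of width in these shares was not tested.

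The 524 regions lay in 447 host genes, of which 386 had 1 region and 61 had more. One region lay in the overlap of Iqschfp and Schip1, and 7 hosts were predicted genes. Host genes were long, with a median span of 59.9 kb against 17.2 kb for all protein-coding genes. The rule sets part of this difference, since none of the 5034 genes of up to 5 kb could be a host. Per length of interior, shorter genes held more regions. Genes over 5 and up to 20 kb held 2.34 regions per Mb of interior, those over 200 kb held 0.216, and all genes 0.562. Gene interior is the sequence of a gene more than 2.5 kb from any protein-coding gene end, and it came to 932.7 Mb in 16763 genes.

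The regions were unevenly placed along their hosts. Strand could be taken from the start table for 413 regions, and 140 of them (33.9%) lay in the first 20% of the gene, which held 17.6% of the interior bases. The last 20% held 38 regions (9.20%) and 17.6% of the bases. Regions without a listed start of a protein-coding gene were 70 of the 140 and 34 of the 38. Their median position was 41.2% along the gene from its 5′ end, against 34.5% for all 413. In steps of 20% from the 5′ end, regions without such a start numbered 70, 44, 45, 41 and 34. They too were thus most frequent in the first 20%. The part of starts in the uneven placing was not tested. Distances to the nearest gene end had a median of 8748 bp and reached 462461 bp. Many of the regions therefore lay near the limit of the rule, and 173 of them were under 5 kb from an end.

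At that limit, regions just inside lay at F12 (2503 bp from a gene end, NT 33, LPS 12), Dact3 (2530 bp, 29 and 15) and Fbxo33 (2549 bp, 33 and 14). Regions just outside lay at Synj1 (2477 bp, 31 and 19), Fli1 (2480 bp, 34 and 9) and Myc (2492 bp, 22 and 11). At the width limit, regions just inside lay at Hoxd3 (4954 bp, 36 and 16), Vgf (4974 bp, 84 and 33) and Nfia (4978 bp, 80 and 30). Those just outside lay at Shank1 (5031 bp, 104 and 57), Psd (5102 bp, 78 and 44) and Meis2 (5162 bp, 34 and 19). Values on both sides of each limit overlapped.

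The ends of the host genes carried EZH2 in part. Of the 447 hosts, 162 (36.2%, 31.9 to 40.8%) had another shared region with its midpoint within 2.5 kb of an end, against 16.1% (15.5 to 16.6%) of the 16763 genes with an interior. No EZH2 region lay at an end of 237 hosts (53.0%, 48.4 to 57.6%), against 58.0% of all such genes. The share without EZH2 at the ends was thus a little below that of all genes. Ends with a region of NT alone were seen in 9.62% of hosts (7.22 to 12.7%), against 25.3% of all such genes. A second region under 2 kb away was seen for 186 of the 524 regions (35.5%) for 20.8% of gene-end regions and for 38.0% of regions between genes.

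A start inside a gene body is possible because a gene with several promoters spans from its outermost start to its last end. Of the 524 regions, 179 (34.2%, 30.2 to 38.3%) held at least 1 listed start of a protein-coding gene. The start table listed 353 of the 447 hosts. Among the 413 regions in those hosts the share was 43.3% (38.6 to 48.2%). A start lay within 1 kb of the midpoint of 178 regions (34.0%), whereas 0.552% of interior bases lay that near to a start. Regions of NT alone in gene interiors reached 45.7% (306 of 669), and those of LPS alone 15.4% (8 of 52). Gene-end regions held a start in 62.7% of 2801 cases.

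The label of these regions was checked against the starts. In 109 of the 179 regions the start was the first listed start of the gene, and the gene span of the table reached a median of 5175 bp further upstream. For these, the annotation used decides whether the region counts as inside the gene. At Kcna2 the span reached 10684 bp further upstream, and at Tnxb, with values of 59 in NT and 36 in LPS, 10082 bp. The homeobox gene Nkx2-2 was another case, with 9032 bp. In the other 70 regions the start was a downstream one, a median of 16824.5 bp from the first listed start. Exons and introns were not analysed here.

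The first listed start of the gene was without EZH2 for 45 of those 70 regions (64.3%, 52.6 to 74.5%). Over all 1304 genes with an interior downstream start the share was 65.2%, so nothing is read from it about the host genes. For the other regions, a shared region covered the first start in 17, a region of NT alone in 6, one of LPS alone in 1 and another region of this class in 1. Sp2 and Mest are among the 45 with no EZH2 at the first start, Mest with 86 in NT and 34 in LPS. Kcnip3, a potassium channel-interacting protein gene, had 55 and 36 at a start 39595 bp downstream of the first. Esrrb, an orphan nuclear receptor gene of pluripotent cells, had 59 and 30 at 60527 bp. Runx3, which encodes a Runt factor of T and NK cells, had 47 and 18 at 31900 bp.

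At other genes both starts were occupied. Syt2, a synaptotagmin gene, had 104 in NT and 48 in LPS at its first listed start and 53 and 33 at a start 62688 bp downstream. Mecom had 53 and 33 at the first start and 32 and 26 at one 496555 bp downstream. In both genes the downstream region had the lower NT value and the higher ratio, as in 9 of the 17 regions whose gene had a shared region at the first start. Over all 17, the downstream NT value was the lower one in 12 and the downstream ratio the higher one in 10.

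In the 179 regions that held a start, most summits lay near it and on its downstream side. These regions were taken because they held a start, were under 5 kb wide, and the nearest start was used. Short distances are thus in part set by this choice, and no other positions were set beside them. In NT the summit lay a median of 178 bp downstream of the nearest start, 132 of 179 (73.7%) within 500 bp and 128 (71.5%) on the downstream side. In LPS the median was 183 bp downstream, with 127 (70.9%) within 500 bp and 128 (71.5%) downstream. At Kcnip3 the summits lay 163 bp downstream in NT and 131 bp downstream in LPS, and at Kcna2 737 and 337 bp downstream.

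**Figure D2:**
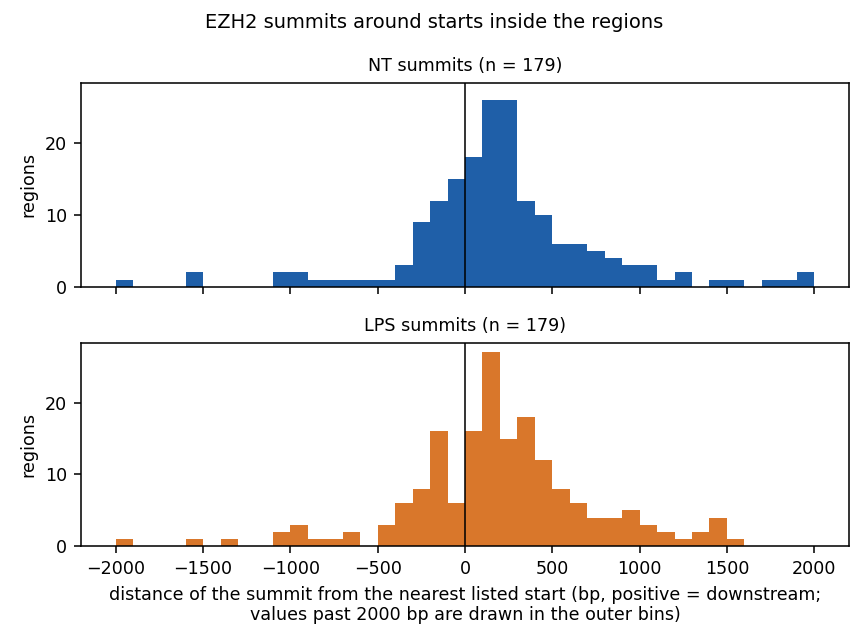
Distance in bp from the nearest listed start to the EZH2 summit for the 179 regions that hold a start, in bins of equal width, NT above and LPS below, with the number of regions on the y axis. Both distributions peak just downstream of the start, with medians of 178 bp in NT and 183 bp in LPS.

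Starts with and without EZH2 differed in base composition. Gene interiors held 2845 listed starts of 2114 genes, of which 207 lay in these regions. Their 300-base windows had a median GC content of 65.3% and a median ratio of observed to expected CpG of 0.73. The 2257 interior starts with no EZH2 region had medians of 51.0% and 0.28. Starts with at least 55% GC and a CpG ratio of at least 0.65 are called CpG-rich here. They were 131 of the 207 (63.3%, 56.5 to 69.6%), 66.7% of 318 starts in regions of NT alone, and 11.7% of those without EZH2. At gene ends they were 66.6% of 2296 starts in a shared region of any width and 25.3% of 12280 with no region. The CpG-rich share is thus not particular to the inner regions. Several starts can share 1 region, and their windows can overlap. The part of GC content in the recovery of DNA was not tested.

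The reverse view also showed a difference. Of the 634 CpG-rich starts in gene interiors, 131 (20.7%, 17.7 to 24.0%) lay in these regions, 33.4% in regions of NT alone, and 41.5% met none. Of the 2211 other starts, 76 (3.44%, 2.76 to 4.28%) lay in these regions and 90.2% met none. A CpG-rich start was therefore often without EZH2, and the 5 CpG at the start of Tnxb printed above show that a region can cover a start with few.

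**Figure D3:**
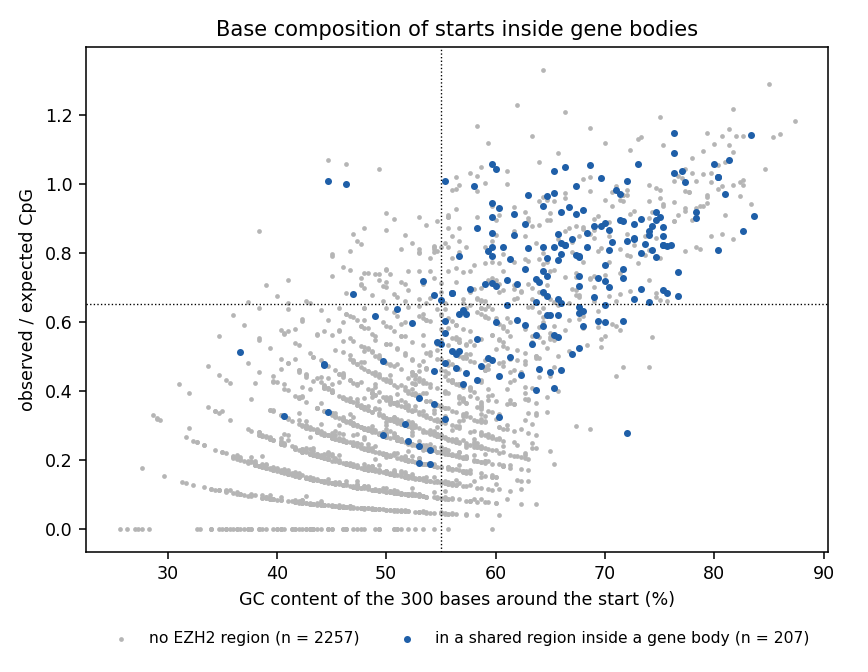
Ratio of observed to expected CpG against GC content in percent for the 300 bases around each start in gene interiors, with the 207 starts in shared inner regions in blue and the 2257 starts with no EZH2 region in grey. Dotted lines mark 55% GC and a ratio of 0.65, and 131 blue points lie above both limits.

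Short motifs were counted in the same windows on both strands, and matches of different motifs may overlap. GGGCGG, the GC box bound by Sp factors, was found in 71.5% of the 207 starts, 26.0% of interior starts without EZH2 and 46.2% of all 21263 listed protein-coding starts. GCGCGC, which reads the same on both strands, was found in 29.0%, 7.84% and 17.9%. TATAAA, the TATA box, was found in 3.38%, 13.2% and 12.6%. CACGTG, an E-box that also reads the same on both strands, was found in 5.80%, 5.23% and 7.84%. In the 318 interior starts in regions of NT alone these motifs were found in 68.6%, 30.8%, 5.66% and 8.18%, in the same order. The motif shares are thus not particular to the shared regions. The first 2 motifs are made of G and C alone, so their shares move with the base composition given above, whose part was not tested, and a match is no bound site.

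Starts of long non-coding RNAs (lncRNAs) were found in 43 regions (8.21%, 6.15 to 10.9%). The shares were higher in the other classes, 10.1% at gene ends and 15.2% between genes. Each of the 43 pairs of region and lncRNA was set against the strand of the host gene. The lncRNA ran opposite to the host in 33 pairs and along it in 1, and the strand of the host was not listed for 9. Strands of all lncRNA starts in gene interiors were not counted, so nothing is read from these pairs about the regions. At Cdh23, a stereocilia cadherin gene, the lncRNA Gm51803 started on the opposite strand in a region with 63 in NT and 36 in LPS. Both a protein-coding and a lncRNA start were held by 20 regions. No listed start was held by 322 regions, and their median values were 33 in NT and 16 in LPS, the same as for the 179 regions with a protein-coding start.

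Mature miRNAs of the RefSeq table lay inside regions at Cxxc4 (48 in NT, 27 in LPS) and Pde4d (36 and 16), which were named after their values were seen. They are shown because a host gene region can also be the region of a small RNA, with the seed, bases 2 to 8, in capitals. They lie at chr3:134240515-134240536 on the minus strand and chr13:109903819-109903840 on the plus strand, and their seeds differ.
mmu-miR-1895: cCCCCGAGgaggacgaggagga
mmu-miR-1904: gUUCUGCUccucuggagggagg

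Genes with several regions showed how values vary within 1 gene. Sptbn4, which encodes the beta-IV spectrin of axon initial segments, held 6 regions. In order from the nearest to the farthest from its 5′ end, their NT values were 22, 15, 18, 33, 30 and 64 and their LPS values 11, 11, 10, 21, 14 and 30. The highest lay 82.4 to 84.4 kb into a gene of 91.3 kb, that is towards the 3′ end. A region over its 5′ end had 15 in NT and no LPS interval, and a shared one 0.351 to 2.19 kb into the gene had 31 in NT and 16 in LPS.

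Msi1, an RNA-binding protein gene of neural stem cells, held 4 regions with NT values of 22, 86, 82 and 40 and LPS values of 11, 23, 36 and 20. The pair with 86 and 82 in NT lay side by side, yet had ratios of 0.267 and 0.439. Srrm3, a neuronal splicing regulator gene, had 39, 62 and 72 in NT and 13, 25 and 32 in LPS. Neither gene had a shared region at an end. Msi1 is not in the start table, so its strand and starts could not be checked and its values follow the order of coordinates.

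Dab2ip, a gene of Ras regulation, had 57, 43 and 50 in NT and 32, 20 and 23 in LPS. Its first pair of regions each held a downstream start, 24382 and 63523 bp from the first listed start. Speg had 24, 41 and 56 in NT and 11, 31 and 27 in LPS, so the region with the highest NT value was not the one with the highest LPS value. Unc5a, a netrin receptor gene, had 44, 35 and 31 in NT and 27, 20 and 10 in LPS.

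Among transcription factors, Gata4, a factor of heart and endoderm, had 62, 26 and 27 in NT and 38, 11 and 17 in LPS. It also held shared regions of over 5 kb with 59 and 41 and with 36 and 20, which the width limit left out. Gata4 is not in the start table either, so its values follow the order of coordinates. Nkx2-2, a factor of ventral neural tube and pancreas, had 18, 37 and 44 in NT and 12, 23 and 30 in LPS. In both genes the order of the LPS values followed that of the NT values.

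**Figure D4:**
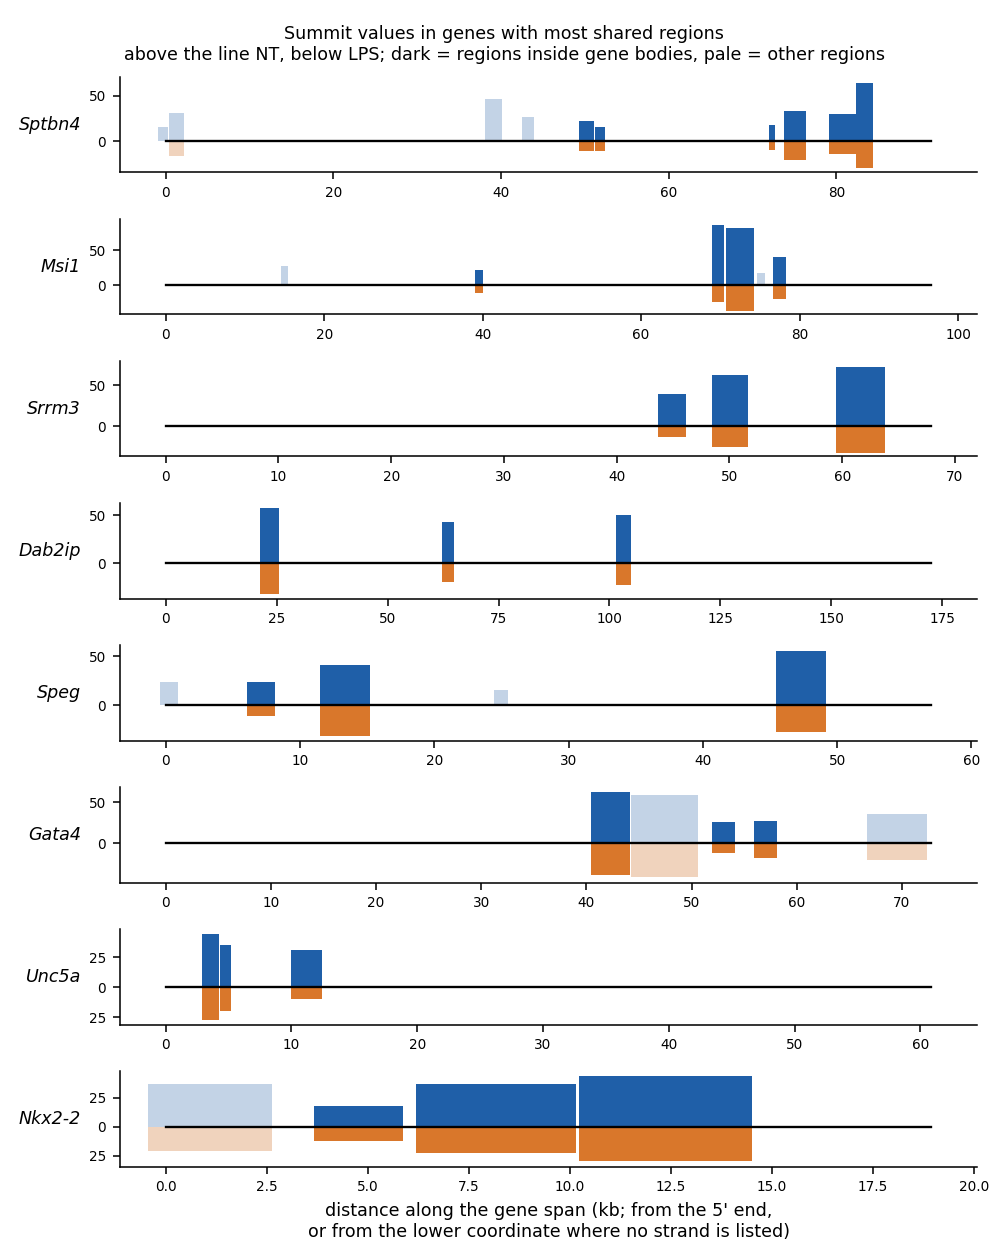
Summit values of all EZH2 regions along the 8 genes named for several shared inner regions, NT above the line and LPS below, against distance along the gene in kb, with inner shared regions dark and other regions pale. Sptbn4 has 6 dark bars, the tallest at 64 in NT near the 3′ end, and at Msi1 neighbouring bars of 86 and 82 in NT stand over 23 and 36 in LPS.

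Host genes were grouped by 14 lists of gene function, and the density of regions per Mb of interior was set beside 0.562 for all genes, of which 2.67% with an interior were hosts. Regions per Mb and the share of host genes can differ in order, since lists differ in gene length. Over all genes, density was 2.34 per Mb at 5 to 20 kb, 0.954 at 20 to 50 kb and 0.216 over 200 kb. The list densities were not matched for length, so 0.562 is not the value for genes of like length. Developmental transcription factors held 47 regions in 32 of 116 genes with an interior, or 3.39 per Mb, with medians of 27 in NT, 15 in LPS and 0.588 for the ratio. Of these 47 regions 8 held a protein-coding start. Pax5 is given above, and the highest others were Nfia with 80 and 30, Gata4 with 62 and 38, and Esrrb with 59 and 30. With the 1 kb limit 62 genes of the list were hosts. A shared region lay at an end of 113 of all 150 genes of the list, so EZH2 at these genes is not particular to gene interiors.

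Genes of the Wnt, Fgf, Bmp and Tgf-beta pathways held 12 regions in 11 of 96 genes, or 1.95 per Mb. The Wnt ligand gene Wnt6 had adjoining regions with 67 and 64 in NT and 29 in LPS for each, Wnt3 had 51 and 29, and Wnt8b had 55 and 20. Axin2, a negative regulator of Wnt signalling, had 59 in NT and 22 in LPS. Axon guidance genes held 16 regions in 13 of 78 genes, or 1.18 per Mb. Among them were the semaphorin gene Sema6d with 54 and 26, and Rgma and Rgmb, which encode repulsive guidance molecules, with 42 and 22 and with 41 and 16.

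For neuronal membrane genes the density per Mb was near that of all genes, while the share of genes that were hosts was higher. Potassium, sodium and calcium channel genes held 12 regions in 10 of 151 genes (6.62%), or 0.634 per Mb, with a median ratio of 0.637. Besides Kcna2 and Kcnip3 they included Cacna1c, a calcium channel gene with 57 and 24 at its highest region, and Kcnj9, an inward rectifier gene, with 43 and 21. Neurotransmitter receptor and synapse genes held 14 regions in 12 of 133 genes (9.02%), or 0.567 per Mb. The neurexin gene Nrxn2 had 79 and 43, the scaffold gene Shank3 had 59 and 28, and Dlgap4 had 65 and 20.

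Cadherin superfamily genes held 6 regions in 5 of 80 genes (6.25%), or 0.410 per Mb, and 29 of them were hosts with the 1 kb limit. Cdh23 is given above, and Fat1, Pcdh7 and Cdh22 had NT values of 28, 27 and 25 and LPS values of 16, 11 and 10. Collagen and matrix genes held 4 regions in 3 of 113 genes (2.65%), or 0.343 per Mb. These were Tnxb, Col8a2 (50 and 25 at its highest) and the gelatinase gene Mmp9 (71 and 35).

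Genes that themselves act on chromatin or transcription were covered in part. Histone methylation and polycomb genes held 7 regions in 6 of 84 genes, or 1.29 per Mb. Besides Prdm13 these included Prdm11 with 38 and 16, Prdm2 with 33 and 13, and Kdm2b, whose protein brings a variant polycomb repressive complex 1 to CpG islands, with 29 and 14. Zinc finger genes of the Zfp, Zbtb and Znrf type held 12 regions in 9 of 440 genes, or 0.776 per Mb. They included Zbtb46, a marker of classical dendritic cells, with 70 and 35, and Zfp469 with 57 and 37.

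No region lay in any of 25 macrophage identity genes with an interior. Their interior came to 1.18 Mb, in which 0.562 per Mb would give less than 1 region. A shared region lay at an end of 8 of all 35 macrophage identity genes, and of 3189 of all 21887 protein-coding genes. LPS response genes held 5 regions in 5 of 46 genes, or 3.75 per Mb in 1.33 Mb. This density comes from a short interior and was not matched for gene length. Nos2, the inducible nitric oxide synthase gene, had 58 in NT and 25 in LPS, and Egr2, an early growth response factor gene, had 47 and 20. Regulators of NF-kB followed, with 37 and 15 at Nfkbiz, 29 and 13 at Nfkb2, and 19 and 12 at Bcl3, the last named because the count was small. With a limit of 5 kb from gene ends 2 were hosts.

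Regulators of other blood lineages held 8 regions in 6 of 40 genes, or 2.56 per Mb. Besides Pax5, Runx3 and Mecom these included Bcl11a, a factor of B cells and of fetal globin silencing, with 40 and 18. Of the 6 hosts, all but Tal1, named because the count was small, are also on the list of developmental transcription factors. Imprinted genes held 4 regions in 3 of 31 genes, with 86 and 34 at Mest, 53 and 22 at the higher of a pair at Gnas, and 35 and 16 at the growth factor gene Igf2. Of 18 housekeeping genes 1 was a host, Ywhaz, a 14-3-3 protein gene, with 37 and 21. Its list had the highest density, 6.06 per Mb, from 1 region in 0.165 Mb, so a density from so short an interior says little.

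**Figure D5:**
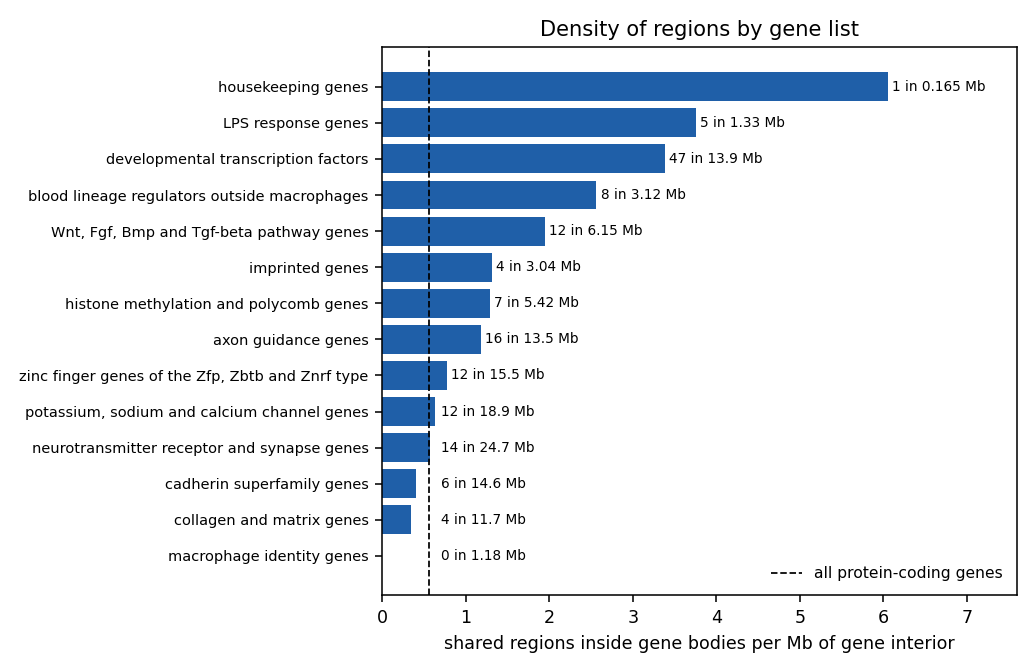
Shared inner regions per Mb of gene interior for each of the 14 gene lists, with the number of regions and the interior length beside each bar and a dashed line at 0.562 for all protein-coding genes. Of lists with over 10 Mb of interior, developmental transcription factors stand highest at 3.39 per Mb and collagen and matrix genes lowest at 0.343. Densities were not matched for gene length.

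By chromosome the density was highest on chromosome 7, with 57 regions or 1.14 per Mb of interior, followed by chromosome 2 with 65 (0.882) and chromosome 4 with 48 (0.857). The X chromosome held 6 regions or 0.145 per Mb, and none lay on Y, whose gene interior is 1.73 Mb. Esx1, given above for its ratio, was 1 of the 6 on X.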

How the data were processed

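EZH2 ChIP-seq of 1 NT and 1 LPS library was used, from a deposited track file with 5 tracks. Per the submitters' processing notes, BWA, SICER and the build mm10 were used, with no version or role for each. The authors deposited intervals and summits per library and 1 track of merged regions, and the score of each interval is a whole number (unit not given in the sources used). The depth of sequencing, use of the input and scaling between libraries are not given there either, so no depth interval could be attached to a value. Positions were deposited as BED coordinates and are printed 1-based.

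A merged region was called shared when at least 1 bp of it met an interval of both libraries. Gene spans, starts (listed with 300-base sequences, several per gene) and miRNAs came from RefSeq tables of GRCm38.p6, which listed 21887 protein-coding genes. The tables of starts hold 17492 of these and no gene of chromosome 18. A start was interior when it lay more than 2.5 kb from every protein-coding gene end. The expected number of CpG in a window is the product of its C and G counts divided by its length. Wilson intervals at 95% are given for shares. With 1 library per condition no test was made. Python 3.11.15 with pandas 2.3.3, numpy 2.4.6 and scipy 1.17.1 was used, and the assignment of regions to places was tested on simulated data. Region sequences, exons and introns were not analysed here.

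The members, gene lists, groupings by value and measures were chosen with earlier results of these data known. The genes named are the 10 highest by mean value, the 8 highest and 8 lowest ratios among regions at or above the median mean, up to 8 genes with at least 3 regions, up to 4 hosts per list by mean value, and 3 regions on each side of both limits. Predicted genes were passed over, and 1 further gene list is not reported here. Others are marked as named after their values were seen, or because a count was small, or show the start classes, lncRNAs and miRNAs. Alternatives changed the distance and width limits, the overlap, the genes, the position, the interval threshold and the value.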

Additional observations from a re-analysis of the deposited data

How the results depend on the processing

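No paired analysis was possible because NT and LPS had 1 library each. Of 267 alternative values over 14 settings, 208 stayed within their stated error or within 1.5 times and 59 moved. These values are counts, shares and medians, and no change of direction was looked for. Settings that admit or drop regions change counts by construction. Width limits likewise set the direction of the median width, and avoiding non-coding gene ends sets the share near them to 0%. For the other medians and shares the cause was not tested. With a limit of 1 kb from gene ends there were 1074 regions in 970 host genes, 29.2% of shared regions under 5 kb, with a median NT value of 36 and width of 2265 bp, and 39.9% held a protein-coding start. Host genes were then 62 developmental transcription factors, 21 Wnt, Fgf, Bmp and Tgf-beta pathway, 22 axon guidance, 29 channel, 23 synapse, 29 cadherin, 10 collagen and matrix, 13 histone methylation, 20 zinc finger, 1 macrophage identity, 12 blood lineage, 6 imprinted and 2 housekeeping genes. With 5 kb the share was 9.54% and there were 290 host genes, with 5 pathway, 7 axon guidance, 7 synapse, 2 cadherin, 2 LPS response and 1 imprinted gene. With widths under 3 kb the medians were 30 in NT, 15 in LPS and 1837 bp, and host genes were 3 cadherin, 1 matrix and 3 LPS response genes. With no width limit they were 36, 18 and 2283.5 bp, with 51 developmental transcription factors. Avoiding the ends of non-coding genes too gave a share of 11.6%, 0% within 2.5 kb of a non-coding gene end in place of 18.1%, 1 cadherin and 3 LPS response genes. Intervals at or above the median value of their library gave 266 regions in 244 host genes, medians of 44, 22 and 2575.5 bp, and 19 developmental, 7 axon guidance, 7 synapse, 2 cadherin, 2 histone methylation and 2 LPS response genes. With the NT list shortened to the length of the LPS list by value, the medians were 39, 20 and 2339 bp, the median ratio was 0.481, and host genes were 20 developmental and 2 cadherin genes. In alternatives chosen after seeing the data, limits of 50% GC and a CpG ratio of 0.6 made 72.5% of starts in the regions CpG-rich. The unknown depth and scaling limit every comparison of NT with LPS values, and the summit values give no counting error of their own.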
